A study of Mus musculus with 9 samples.

Results

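The 41 genes described here encode enzymes and membrane proteins of the lysosome, with the soluble cofactors of those enzymes and the transcription factor Tfeb. They were taken by symbol from a list of 41, and all 41 were found among the 26602 genes with a count in midbrain libraries of 4 DJ-1+/+ and 5 DJ-1-/- mice. All 41 also passed the minimum of 10 counts over the 9 libraries, at which 18127 genes were tested. No member was thus left out of the expression results, while promoter entries matched 37 of the 41. The study asked whether DJ-1 takes part in regulating the gut microbiome and inflammation, and sequenced midbrain RNA of young adult mice to look for brain inflammation. Loss of DJ-1 causes early-onset Parkinson's disease in humans.

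The DJ-1-/- line holds a targeted Park7 allele on a C57BL/6 background reached by 7 generations of backcrossing. Both genotypes had heterozygous parents and shared cages. The controls were DJ-1+/+ mice (WT in the sample labels, where DJ-1-/- mice are DJ-1 KO). No mouse of either genotype was treated, all were 3 to 4 months old, and the tissue was midbrain including the substantia nigra. The deletion is present in every cell, and the tissue is a mixture of neurons, glia, vessels and any neighbouring tissue taken with it. In such bulk RNA, fewer cells of a type and less RNA per cell cannot be told apart.

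Lysosomes are acidic organelles in which proteins, glycans, sulfated sugars and lipids delivered by endocytosis and autophagy are broken down. Their soluble hydrolases are sorted from the Golgi, work at a low pH kept by a proton pump, and often need a small activator protein, while heavily glycosylated membrane proteins line the inner face of the organelle. Inherited loss of many of these enzymes causes storage diseases that damage the brain, and several of the genes are linked to neurodegeneration.

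The unit of measurement is the number of distinct molecules counted for a gene, as unique molecular identifiers (UMIs) let copies made by PCR be counted once. Libraries were built from the 3′ ends of polyadenylated transcripts, so counts do not grow with transcript length. Total counts were 841974, 879901, 859549 and 886085 in DJ-1+/+ replicates 1 to 4 and 999042, 1098125, 969376, 967751 and 1026201 in DJ-1-/- replicates 1 to 5. Every DJ-1-/- library was deeper than every DJ-1+/+ library. Before scaling, the counts of 6 of the 41 members (Ctsb, Ctsd, Ctss, Ids, Lamp1 and Neu1) did not overlap between genotypes. This was so for a smaller share of the genes tested, 1420 of 18127 (7.83%). Levels are therefore given as counts per 1000000 of the library total (cpm), and fold changes come from a fit that scales for depth. At these totals, 3 counts correspond to between 2.73 and 3.56 cpm, and the lowest count of any member in any library was 10, in Naglu.

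The scale of the counts is compressed at the top. In each library the 100 most abundant genes held only between 3.58% and 3.86% of all counts, and the highest count of any gene ranged from 1040 to 1359. The myelin gene Mbp had between 396 and 588 counts. The cystatin gene Cst3, the most abundant of the lysosomal and related genes examined, had between 234 and 394. How far this holds down the levels and fold changes of the most abundant lysosomal genes was not tested, so levels of different genes are compared only as UMI counts, not as amounts of transcript.

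The DJ-1 gene itself, Park7 (chr4:150897133-150914437, minus strand, GRCm38), was examined first because it checks the labels. It had 132, 105, 113 and 118 counts in DJ-1+/+ and 23, 29, 14, 19 and 19 counts in DJ-1-/- mice. Park7 was lower in every DJ-1-/- library than in any DJ-1+/+ library, and the log2 fold change was −2.71 (standard error 0.15, edgeR adjusted p = 7.39e-08), as the labels state.

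Several libraries stood apart in what else they held. Summed over 6 cerebellar neuron markers, DJ-1+/+ replicate 1 reached 905 cpm, against 275 to 432 cpm in the other DJ-1+/+ and 254 to 433 cpm in the DJ-1-/- libraries. Zic1 and Calb1 made up most of that sum in the other libraries, and of the remaining genes Gabra6, Pcp2 and Cbln3 had 102, 79 and 127 counts in DJ-1+/+ replicate 1 and at most 2, 2 and 10 in any other. Summed over 9 choroid plexus markers, DJ-1+/+ replicates 4 and 1 reached 1031.5 and 582 cpm, against 285 to 432 cpm in all others. Zic1 was the most abundant gene of the cerebellar list and Enpp2 that of the choroid plexus list, and no gene of either list was without counts. The 8 dopaminergic neuron markers, led by Ddc, were all detected and summed to 559, 780, 405 and 341 cpm in DJ-1+/+ and 627, 711, 682, 816 and 572 cpm in DJ-1-/- mice. At any p all 8 were higher in DJ-1-/- mice, 3 of them with an unadjusted p under 0.05 in edgeR. All 6 cerebellar and all 9 choroid plexus markers were lower, 3 and 6 of them with an unadjusted p under 0.05. Of all genes tested, 2.83% had such a p in either direction. Those 3 cerebellar genes were Gabra6, Pcp2 and Cbln3, high in DJ-1+/+ replicate 1 alone. Each of those 6 choroid plexus genes was highest in DJ-1+/+ replicate 4. Of the 9 libraries, 6 had between 146 and 193 Xist counts, while DJ-1-/- replicate 5 had 2 and DJ-1+/+ replicates 1 and 4 had at most 1. Those 3 had between 234 and 281 counts summed over 4 Y-linked genes, where the others had at most 7, so sex-linked expression was not balanced between genotypes. Results for the members use all libraries unless stated. The log2 fold change had the opposite sign for 16 of the 41 members without DJ-1+/+ replicates 1 and 4 and for 14 in the 6 Xist-expressing libraries. Both sets keep DJ-1+/+ replicates 2 and 3 as the only controls and differ only in DJ-1-/- replicate 5, so they are not independent checks. The part of tissue composition and of sex in these results was not tested, and DJ-1+/+ replicates 1 and 4 stood apart in both.

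**Figure D1:**
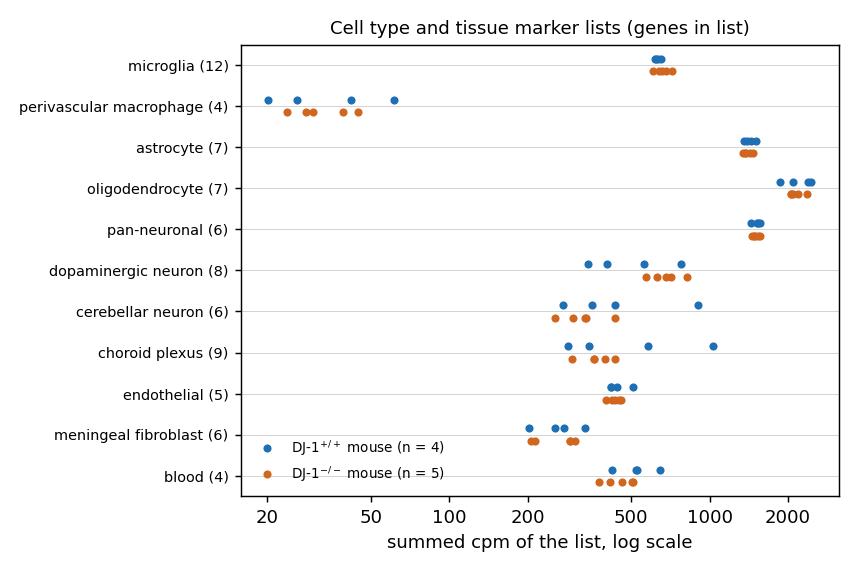
Summed cpm (horizontal, log scale) of 11 marker lists in each mouse, with 4 DJ-1+/+ mice in blue and 5 DJ-1-/- mice in orange and the number of genes of each list in brackets. DJ-1+/+ replicate 1 lies to the right for cerebellar neurons at 905 cpm and DJ-1+/+ replicate 4 for choroid plexus at 1031.5 cpm, while microglial markers span 604 to 716 cpm.

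The lysosomal genes as a group were abundant, and their summed level overlapped between genotypes. Their mean levels ran from 19.8 cpm for Naglu to 229.6 cpm for Lamp1, with a median of 82.1 cpm, a level above that of 72.6% of the genes tested. Summed over all 41 genes, the DJ-1+/+ mice had 3763, 3494, 3698 and 3571 cpm and the DJ-1-/- mice 3871, 3673, 3677, 3647 and 3583 cpm. The lowest sum was thus in DJ-1+/+ replicate 2 and the highest in DJ-1-/- replicate 1, and the genotypes overlapped. DJ-1-/- replicate 1 was the highest of the 9 mice for 11 of the genes, and DJ-1+/+ replicate 2 the lowest for 9.

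None of the 41 genes had an adjusted p under 0.05 by quasi-likelihood testing in edgeR, where 0.00552% of the 18127 genes tested, Park7 alone, had one. At an unadjusted p under 0.05 there were 2 members, Ctsb (higher in DJ-1-/-) and Lamp2 (lower in DJ-1-/-), which is 4.88% of the members beside 2.83% of all genes tested (513 genes). DESeq2 gave 0 members at either threshold, and 1.296% of all genes tested at the unadjusted one, a share that would be less than 1 of 41 genes. No member had cpm values that did not overlap between the genotypes, where 1.25% of all genes tested had such values, and none had an exact permutation p under 0.05 for the difference in mean cpm, where 3.67% of all genes did. Over the members the log2 fold changes had a median of 0.03, beside 0.01 over all genes tested. Of all genes tested, 51.9% were higher in DJ-1-/- mice at any p. Of the members, 26 (63.4%) were higher in DJ-1-/- mice and 15 lower at any p. This split was 29 to 12 without DJ-1-/- replicate 2 or without a minimum count, 24 to 17 with RLE size factors, 21 to 20 without DJ-1+/+ replicate 2 and 20 to 21 without DJ-1-/- replicate 1.

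The size of difference that the data still allow differed between members. For 32 of the 41 genes the 95% interval of the log2 fold change lay inside −0.5 to 0.5, which was so for 44.2% of all genes tested. The 32 became 25 without DJ-1+/+ replicates 1 and 4, 23 in the 6 Xist-expressing libraries and 27 to 31 when any 1 library was left out. With all libraries, the other 9 members were Arsb, Ctsh, Galc, Gusb, Idua, Manba, Naglu, Sgsh and Tfeb, each with 59 or fewer counts in every library. Such counts did not set them apart, as Cln3, Ctsc, Ctso, Gla, Glb1 and Mcoln1 had 59 or fewer too, with intervals inside −0.5 to 0.5. Standard errors over all members ran from 0.08 to 0.27 on the log2 scale, so a difference of the size of the median member could not be detected with these libraries.

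**Figure D2:**
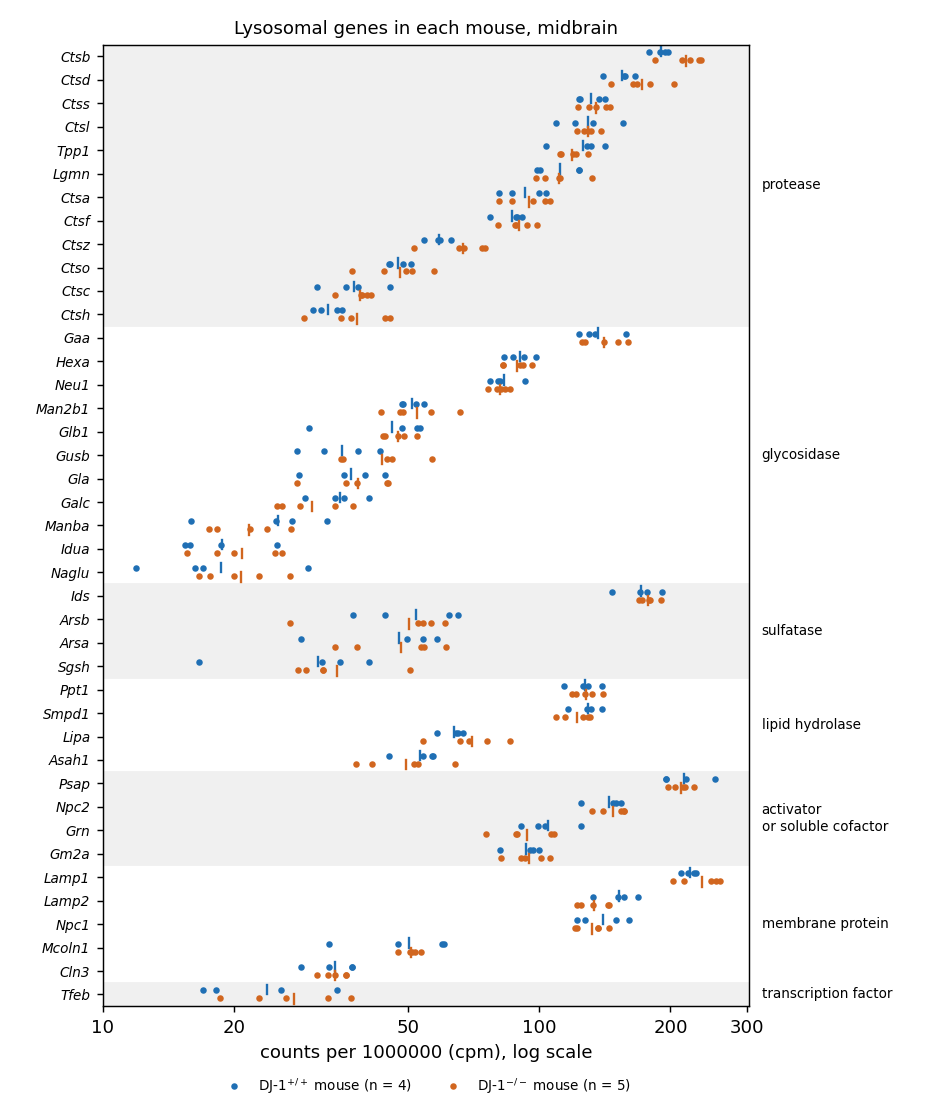
Level of each of the 41 lysosomal genes in every mouse, in cpm on a log scale, ordered by role and by mean level, with 4 DJ-1+/+ mice in blue, 5 DJ-1-/- mice in orange and a bar at each genotype's mean. The genotypes overlap for all 41 genes, and mean levels run from 19.8 cpm for Naglu to 229.6 cpm for Lamp1.

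The proteases were the largest group, with 12 genes that together made up 1200.1 ± 55.5 cpm (mean ± SD) in the 4 DJ-1+/+ mice and 1261 ± 34.1 cpm in the 5 DJ-1-/- mice. Of these, 9 were higher in DJ-1-/- mice and 3 lower at any p, with a median log2 fold change of 0.04. The most abundant was Ctsb, on chromosome 14 (chr14:63122462-63145923, plus strand), which encodes cathepsin B, a cysteine protease. It had 166, 157, 163 and 172 counts in DJ-1+/+ and 232, 258, 179, 206 and 228 counts in DJ-1-/- mice. In cpm these were 197, 178, 189.6 and 194 against 232, 235, 185, 213 and 222. DJ-1-/- replicate 3 lay within the DJ-1+/+ range, and the other 4 DJ-1-/- mice lay above all DJ-1+/+ mice.

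Ctsb differed between the genotypes by 0.20 on the log2 scale (standard error 0.08, 95% interval 0.03 to 0.37), and edgeR gave an unadjusted p of 0.0252 and an adjusted p = 0.999971. An exact two-sided permutation test of the mean cpm gave p = 0.0635, where 0.0159 is the smallest p that 4 mice against 5 allow. Leaving out a single library raised the unadjusted edgeR value to 0.0831 without DJ-1+/+ replicate 2, 0.0535 without DJ-1+/+ replicate 3, 0.0634 without DJ-1-/- replicate 1 and 0.0676 without DJ-1-/- replicate 2. The other 5 such fits gave values under 0.05, and the fold change ranged from 0.16 to 0.25 on the log2 scale. Without DJ-1+/+ replicates 1 and 4 the log2 fold change of Ctsb was larger, at 0.25 (unadjusted p of 0.0427 in edgeR), as it was in the 6 Xist-expressing libraries, at 0.23 (unadjusted p of 0.0626). Both fits rest on the same controls, DJ-1+/+ replicates 2 and 3. The 3′ end of Ctsb overlaps that of Fdft1 on the other strand, which had between 39 and 67 counts, and the use of strand in counting is not given in the sources used here.

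Ctsd encodes cathepsin D, the main aspartic protease of the lysosome. Its counts were 132, 123, 135 and 147 in DJ-1+/+ and 179, 184, 159, 197 and 150 in DJ-1-/- mice, and the log2 fold change was 0.15 (standard error 0.09). DJ-1-/- replicate 4 was the highest at 204 cpm, while DJ-1-/- replicates 3 and 5, at 164 and 146 cpm, lay inside the DJ-1+/+ range of 139.8 to 166 cpm. The unadjusted p in edgeR's test was 0.124 with all libraries and over 0.05 in 8 of the 9 fits with a library left out. It was 0.403 without DJ-1-/- replicate 4, where the log2 fold change was 0.07, 0.342 without DJ-1+/+ replicate 2 and 0.0445 without DJ-1-/- replicate 5. In the 6 Xist-expressing libraries it was 0.0416, with a log2 fold change of 0.26, and with the replicate number as a block 0.0273, with a value of 0.20. At its 3′ end Ctsd overlaps Gm49369, annotated on the same strand and without counts, so that strand would not separate their reads. In the Xist-expressing libraries Ctsd, Ctsz and Smpd1 did not overlap between genotypes, while 11.6% of all genes tested did not overlap there.

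The other 10 proteases had between 26 and 146 counts in any library. Ctss, the cathepsin that in brain is made chiefly by microglia, was expressed at 132 ± 9.20 cpm (mean ± SD) in the 4 DJ-1+/+ mice and 135 ± 9.00 cpm in the 5 DJ-1-/- mice. The 12 microglial markers, led by Cx3cr1 and all detected, summed to 615, 634, 650 and 621 cpm in DJ-1+/+ and 655, 716, 678, 604 and 639 cpm in DJ-1-/- mice, so their sums overlapped as Ctss did. Of these markers 9 were higher in DJ-1-/- mice and 3 lower at any p, and 0 had an unadjusted p under 0.05 in edgeR. Their median log2 fold change was 0.14, where that of Ctss was 0.04. Ctsl, a cysteine endopeptidase, was at 129.7 ± 19.8 cpm (mean ± SD of 4) and 129.5 ± 6.01 cpm (mean ± SD of 5), a difference far smaller than either SD. Log2 fold changes of the remaining 8 proteases lay between −0.08 for Tpp1, which removes short peptides from the amino ends of proteins, and 0.22 for the aminopeptidase Ctsh. Between them were Ctsz and Ctsa, both carboxypeptidases, of which Ctsa also holds Neu1 and Glb1 in a stable complex, the dipeptidyl peptidase Ctsc, the asparaginyl endopeptidase Lgmn and the cysteine cathepsins Ctsf and Ctso.

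The 11 glycosidases, which remove sugars from glycoproteins, glycolipids and glycogen, summed to 576 ± 25.1 cpm (mean ± SD) in the 4 DJ-1+/+ mice and 587 ± 34.7 cpm in the 5 DJ-1-/- mice. Gaa, the acid glucosidase that degrades glycogen, led this group with 113, 139, 106 and 115 counts in DJ-1+/+ and 160, 138, 147, 136 and 131 counts in DJ-1-/- mice. The Gaa levels of 123 to 158 cpm and 125.7 to 160.2 cpm overlapped almost fully, and the log2 fold change was 0.05 (standard error 0.09).

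Both the highest and the lowest log2 fold change of all 41 genes were found among the glycosidases, in genes with few counts. Gusb, the β-glucuronidase, had 27, 38, 24 and 34 counts in DJ-1+/+ and 46, 39, 55, 34 and 46 counts in DJ-1-/- mice. Its log2 fold change was 0.30 (standard error 0.19, unadjusted p of 0.136 in edgeR's test), and DJ-1-/- replicates 2 and 4, at 35.5 and 35.1 cpm, lay within the DJ-1+/+ range. Manba, the β-mannosidase, had 21, 14, 28 and 24 counts against 27, 20, 23, 21 and 18, and the log2 fold change was −0.22 (standard error 0.24). With each library left out in turn, Manba ranged from −0.39 without DJ-1+/+ replicate 2 to −0.07 without DJ-1+/+ replicate 3, and Gusb from 0.19 to 0.40. In the Xist-expressing libraries Manba was at −0.10. For both genes the standard error with all libraries is large enough that the interval includes 0.

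The other 8 glycosidases had between 10 and 101 counts in any library and log2 fold changes from −0.21 to 0.15. Hexa, a subunit of β-hexosaminidase, and the sialidase Neu1 were the most abundant of them, with log2 fold changes of −0.02 in each and standard errors of 0.09 and 0.10. Galc, which degrades the myelin lipid galactosylceramide, was at 34.9 ± 4.75 cpm (mean ± SD) in the 4 DJ-1+/+ mice and 30.1 ± 5.39 cpm in the 5 DJ-1-/- mice. In Glb1, the acid β-galactosidase, DJ-1+/+ replicate 1 was low at 29.7 cpm where the other DJ-1+/+ mice had between 48.5 and 53.4 cpm. Man2b1, an α-mannosidase, had a log2 fold change of 0.04, and Idua and Naglu, which act on heparan sulfate, had 0.15 in each with standard errors of 0.24 and 0.27. That of Naglu ranged from −0.01 to 0.45 with each library left out, and without DJ-1+/+ replicates 1 and 4 they were −0.07 for Idua and −0.14 for Naglu. Glb1 was at 0.04 with all libraries and −0.15 without those mice, and Galc at −0.21 and −0.06. Gla is taken up with the X-linked genes.

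Sulfatases remove sulfate groups from glycosaminoglycans and lipids, and the 4 sulfatase genes summed to 302 ± 27.2 cpm (mean ± SD) in the 4 DJ-1+/+ mice and 311 ± 9.58 cpm in the 5 DJ-1-/- mice. Ids, the iduronate sulfatase, was by far the most abundant at 149, 150, 164 and 130 counts in DJ-1+/+ and 179, 196, 167, 184 and 174 counts in DJ-1-/- mice. It is X-linked and varied no more among mice than counting error alone would give.

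The sulfatases Arsb, Arsa and Sgsh were the 3 most variable of all the members among mice of a genotype. This spread was measured as the index of dispersion, the variance of depth-scaled counts within a genotype divided by their mean, which is 1 for counting error alone. It was 3.36 for Arsb, 2.99 for Arsa and 2.72 for Sgsh. Arsb, which acts on dermatan and chondroitin sulfate, had 55, 33, 38 and 55 counts in DJ-1+/+ and 54, 58, 59, 26 and 58 counts in DJ-1-/- mice. In Arsa, which acts on the myelin lipid sulfatide, the counts were 42, 25, 50 and 48 against 61, 42, 52, 33 and 56. The 2 genes thus shared their lowest mouse in either genotype, DJ-1+/+ replicate 2 and DJ-1-/- replicate 4. Sgsh, which acts on heparan sulfate, had 14, 28, 35 and 31 counts in DJ-1+/+ and 28, 35, 31, 49 and 30 counts in DJ-1-/- mice. DJ-1-/- replicate 4, the lowest DJ-1-/- mouse for Arsb and Arsa, was the highest mouse for Sgsh. Log2 fold changes between the genotypes were −0.05 for Arsb, 0.02 for Arsa and 0.14 for Sgsh, with standard errors of 0.22, 0.22 and 0.24. All 3 changed sign when single libraries were left out, with ranges of −0.19 to 0.09 for Arsb, −0.17 to 0.13 for Arsa and −0.06 to 0.29 for Sgsh. Without DJ-1+/+ replicates 1 and 4 they were 0.30, 0.16 and −0.08.

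**Figure D3:**
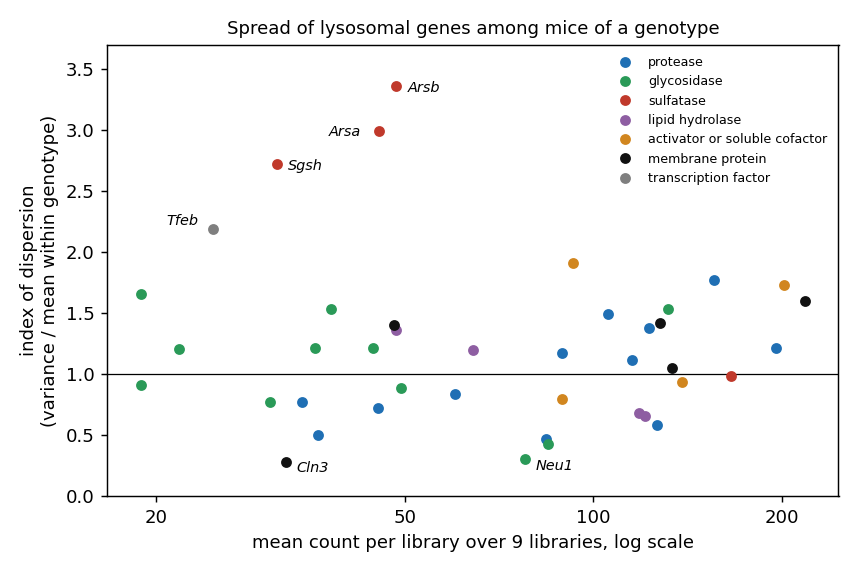
Index of dispersion within genotype (vertical) against mean count per library (horizontal, log scale) for the 41 genes, coloured by role, with the line at 1 marking counting error alone. Arsb at 3.36, Arsa at 2.99, Sgsh at 2.72 and Tfeb at 2.19 lie above 2, and Cln3 is the lowest at 0.28.

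Over all members the index of dispersion exceeded 2 for 4 genes, or 9.76%, and the fourth of these was Tfeb. Among the 10711 genes with mean counts in the range of the members, 19.6% exceeded 2, a larger share than among the lysosomal genes. An index under 1 was found for 17 members, or 41.5%, beside 45.1% of those genes. Cln3, a membrane protein lost in juvenile Batten disease, had the lowest index at 0.28, with 24, 29, 32 and 33 counts in DJ-1+/+ and 36, 36, 30, 33 and 37 counts in DJ-1-/- mice. Its mean was 34.0 cpm in either genotype, and edgeR put the difference at −0.00052 on the log2 scale (standard error 0.16).

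The 4 lipid hydrolases summed to 373 ± 16.4 cpm (mean ± SD) in the 4 DJ-1+/+ mice and 369.8 ± 15.1 cpm in the 5 DJ-1-/- mice. Ppt1, which removes palmitate from proteins, led them with 125.9, 129.6, 139.6 and 114.0 cpm in DJ-1+/+ and 140.1, 127.5, 121.7, 132.3 and 118.9 cpm in DJ-1-/- mice. Ppt1 lies on chromosome 4, as Park7 does, from 122836242 to 122859175. DJ-1+/+ replicate 4 was the lowest mouse and DJ-1-/- replicate 1 the highest, the genotypes overlapped, and the log2 fold change was 0.01 (standard error 0.08). The acid sphingomyelinase Smpd1 was at 129 ± 9.65 cpm (mean ± SD of 4) and 121.97 ± 9.40 cpm (mean ± SD of 5). Lipa, the acid lipase for cholesteryl esters, and the ceramidase Asah1 had between 49 and 94 and between 39 and 64 counts per library, with log2 fold changes of 0.14 and −0.11.

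Activators and soluble cofactors help hydrolases reach their lipid substrates or carry products away, and the 4 genes of this group summed to 558 ± 37.6 cpm (mean ± SD) in the 4 DJ-1+/+ mice and 548 ± 18.5 cpm in the 5 DJ-1-/- mice. Psap, the precursor of the saposins, had 213, 172, 187 and 173 counts in DJ-1+/+ and 216, 217, 207, 198 and 233 counts in DJ-1-/- mice. DJ-1+/+ replicate 1 was the highest of the 9 mice at 253 cpm, and the log2 fold change of Psap was −0.02 (standard error 0.08). Grn, which encodes progranulin, whose products act in the lysosome, had the lowest log2 fold change of the group at −0.17 (standard error 0.12, −0.23 to −0.08 with each library left out), with 75.6 to 108 cpm in DJ-1-/- mice beside 90.7 to 125 cpm in DJ-1+/+ mice. Npc2, which hands cholesterol to Npc1, and the ganglioside activator Gm2a had log2 fold changes of 0.04 and 0.02.

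Membrane proteins of the lysosome summed to 598 ± 43.9 cpm (mean ± SD) in the 4 DJ-1+/+ mice and 587 ± 30.1 cpm in the 5 DJ-1-/- mice over 5 genes. Lamp1, on chromosome 8 (chr8:13159161-13175338, plus strand), encodes a main glycoprotein of the lysosomal membrane and was the most abundant of all 41 genes. It had 193, 186, 195 and 194 counts in DJ-1+/+ and 259, 279, 197, 240 and 221 counts in DJ-1-/- mice. Scaled for depth these were 211 to 229 cpm and 203 to 259 cpm. Before scaling, every DJ-1-/- mouse was above every DJ-1+/+ mouse, and after it DJ-1-/- replicates 3 and 5 were not, with a log2 fold change of 0.09 (standard error 0.08). Lamp1 ranged from 0.05 without DJ-1-/- replicate 1 to 0.14 without DJ-1-/- replicate 3. Npc1, the membrane transporter for cholesterol, and Mcoln1, a cation channel, had log2 fold changes of −0.08 and 0.02. For Mcoln1 the DJ-1+/+ mice spread from 33.0 to 60.5 cpm and the DJ-1-/- mice from 47.5 to 53.6 cpm.

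Lamp2, which is needed for the fusion of autophagosomes with lysosomes, was the member with the lowest p among those that were lower in DJ-1-/- mice. It lies on the X chromosome (chrX:38401357-38456454, minus strand). Counts were 142, 117, 130 and 139 in DJ-1+/+ and 144, 146, 140, 118 and 128 in DJ-1-/- mice, or 169, 133, 151 and 157 cpm against 144, 133, 144, 121.9 and 125 cpm. DJ-1+/+ replicates 1, 3 and 4 were above all DJ-1-/- mice, and DJ-1+/+ replicate 2 was not. The log2 fold change was −0.19 (standard error 0.09, 95% interval −0.37 to −0.01), with an unadjusted p of 0.0428 and an adjusted p = 0.999971 by edgeR. By an exact permutation test of the mean cpm p = 0.0635.

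Lamp2 was highest in DJ-1+/+ replicates 1 and 4, with Y-linked counts and without Xist, at 169 and 157 cpm. DJ-1-/- replicate 5, also with Y-linked counts and without Xist, had 125 cpm. DJ-1+/+ replicates 1 and 4 also had the highest choroid plexus sums, at 582 and 1031.5 cpm. The highest cerebellar sum was that of DJ-1+/+ replicate 1, at 905 cpm. Sex-linked expression and neighbouring tissue thus cannot be told apart in these controls, and neither was tested as a cause. In the 6 Xist-expressing libraries alone the log2 fold change of Lamp2 was −0.07 (unadjusted p of 0.554 in edgeR's test), and with Xist as a covariate it was −0.16 (unadjusted p of 0.109). Of 9 fits with a library left out, 3 gave an unadjusted p under 0.05. Those over it were 0.151 without DJ-1+/+ replicate 1, 0.0606 without DJ-1+/+ replicate 3, 0.0865 without DJ-1+/+ replicate 4, 0.0703 without DJ-1-/- replicate 2, 0.0691 without DJ-1-/- replicate 4 and 0.0795 without DJ-1-/- replicate 5. The log2 fold change in the 9 fits ranged from −0.26 to −0.14, so most of these fits kept about the same size of difference. Without both DJ-1+/+ replicates 1 and 4 it was −0.09 (unadjusted p of 0.427).

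Gla and Ids were the other X-linked members. Gla, the α-galactosidase lost in Fabry disease, had 30, 35, 38 and 25 counts in DJ-1+/+ and 45, 42, 35, 27 and 46 counts in DJ-1-/- mice, and a log2 fold change of 0.06 (standard error 0.19). In the 6 Xist-expressing libraries it was −0.19 (standard error 0.22). Mean levels over the 3 libraries with Y-linked counts and the 6 with Xist were 36.2 and 38.5 cpm for Gla, 164 and 180.2 cpm for Ids and 150.1 and 138 cpm for Lamp2. The ranges of these 2 sets of libraries overlapped for each of the 3 genes. For Ids the log2 fold change between genotypes was 0.06 with all libraries and −0.0067 in the Xist-expressing ones, with standard errors of 0.08 and 0.10.

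Tfeb, the transcription factor that drives expression of many lysosomal genes, was itself among the least abundant members. It had 29, 16, 22 and 15 counts in DJ-1+/+ and 37, 36, 18, 22 and 27 counts in DJ-1-/- mice, or 23.8 ± 8.07 cpm (mean ± SD of 4) and 27.5 ± 7.46 cpm (mean ± SD of 5). DJ-1-/- replicate 1, DJ-1+/+ replicate 1 and DJ-1-/- replicate 2 were the highest mice, the genotypes overlapped, and DJ-1-/- replicate 1 was also the mouse with the highest sum over all members. Its log2 fold change of 0.22 had a standard error of 0.26, so that a difference of this size was not detectable in Tfeb with these libraries. It ranged from 0.08 without DJ-1+/+ replicate 4 to 0.45 without DJ-1+/+ replicate 1, and was 0.34 without both and 0.35 in the Xist-expressing libraries.

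**Figure D4:**
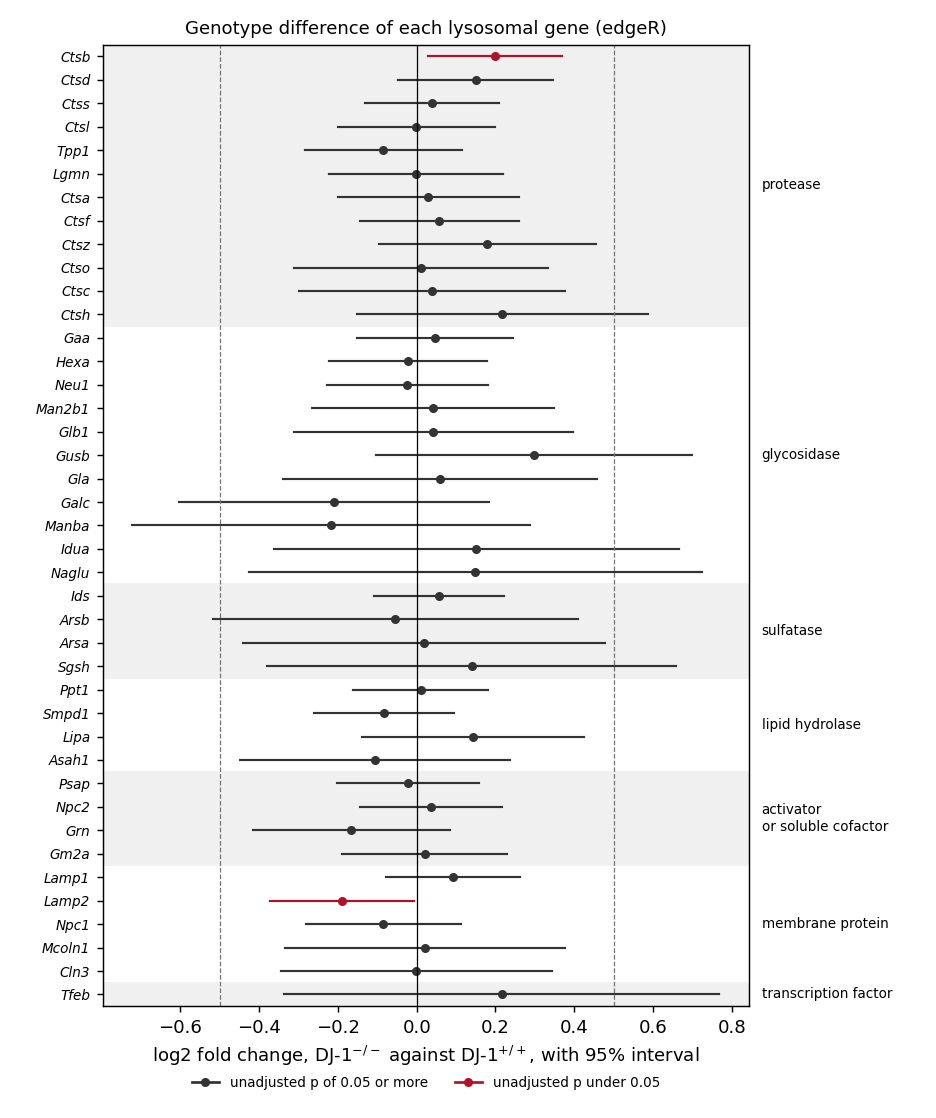
Log2 fold change of each of the 41 lysosomal genes between DJ-1-/- and DJ-1+/+ mice from edgeR (horizontal), with 95% intervals, ordered by role and by mean level. Dashed lines mark −0.5 and 0.5, and the 2 genes in red, Ctsb at 0.20 and Lamp2 at −0.19, had an unadjusted p under 0.05 and an adjusted p of 0.999971.

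Letters bound by Tfeb and its relatives were looked for in the RefSeq promoters of the members (GRCm38.p6, 250 bases before to 50 after the start), which matched 37 of the 41 genes. Ctsb, Ctsh, Asah1 and Npc1 had no entry. The 6 letters CACGTG, which are their own reverse complement so that a match is present on either strand, were in at least 1 promoter of 14 members (37.8%), of 25.4% of the other lysosomal genes matched and of 8.09% of all genes with a promoter entry, or in 7.15% of all 32851 promoters. These members were Arsa, Cln3, Ctsa, Ctsd, Ctsf, Ctsl, Gaa, Gla, Glb1, Lamp1, Lgmn, Mcoln1, Naglu and Sgsh. The longer TCACGTGA, which contains the shorter motif and is also its own reverse complement, was in at least 1 promoter of 5 members (13.5%), of 13.4% of the other lysosomal genes matched and of 1.12% of all genes with an entry, or in 0.974% of all promoters. A match describes the letters of the window and not the binding of a factor.

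The runs of 30 bases around the longer motif are given for the 5 members that hold it, from RefSeq on GRCm38.p6, with the motif in capitals and each run read 5′ to 3′ on the strand of the gene.
Ctsd, chr7:142387908-142387937, minus strand: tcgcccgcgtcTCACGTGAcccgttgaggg
Ctsa, chr2:164833749-164833778, plus strand: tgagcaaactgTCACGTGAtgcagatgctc
Mcoln1, chr8:3500462-3500491, plus strand: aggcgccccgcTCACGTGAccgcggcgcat
Cln3, chr7:126583340-126583369, minus strand: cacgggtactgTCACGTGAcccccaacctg
Gla, chrX:134601182-134601211, minus strand: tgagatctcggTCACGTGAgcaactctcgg
Ctsa and Gla each hold the motif at a further position of the same window.

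Beyond the 41 members, 89 further lysosomal and related genes were looked up and 83 were tested. None of them had an adjusted p under 0.05 in edgeR's test. An unadjusted p under 0.05 was found for 3 of them (3.61%, beside 2.83% of all genes tested), of which 2 were higher in DJ-1-/- mice and 1 lower. DESeq2 gave 0 at an adjusted p under 0.05 and 2 at an unadjusted one (2.41%, beside 1.296% of all genes tested). Their median log2 fold change was 0.03. Tfec, Ctsw, Cst7 and Tpcn2 were below the minimum count, and Ctse and Lamp3 had no counts.

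All 18 tested genes of the proton pump that acidifies the lysosome were expressed, led by Atp6v1a at 262 to 339 counts, and their summed cpm were 3038, 2969, 3048 and 2933 in DJ-1+/+ and 3044, 3064, 2994, 3212 and 3051 in DJ-1-/- mice. Of these 12 were higher in DJ-1-/- mice and 6 lower at any p, with no unadjusted p under 0.05. Atp6v1e1, singled out after its values were seen, was the 1 gene of the 83 (1.205%, beside 1.25% of all genes tested) without overlap between genotypes, at 202.3 to 218.7 cpm in DJ-1+/+ and 219.1 to 240.2 cpm in DJ-1-/- mice, and its log2 fold change was 0.12 (standard error 0.06).

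Flcn, which acts on the Rag GTPases that dock mTORC1 at the lysosome and thereby on Tfeb, had 56, 50, 45 and 48 counts in DJ-1+/+ and 73, 79, 63, 75 and 90 counts in DJ-1-/- mice. DJ-1-/- replicate 3, at 65.0 cpm, lay just under DJ-1+/+ replicate 1, at 66.5 cpm, and the other mice were separated by genotype. The log2 fold change of Flcn was 0.39 (standard error 0.13, unadjusted p of 0.00745 and adjusted p of 0.999971 in edgeR), with a range of 0.32 to 0.46 over the fits that omit a mouse. Rragc, which encodes a Rag GTPase, differed the other way, with 113, 103, 145 and 119.6 cpm against 103, 93.8, 107, 93.0 and 106 cpm and a log2 fold change of −0.26 (standard error 0.10, unadjusted p of 0.0216). That value was 0.140 without DJ-1+/+ replicate 3 and 0.0525 without DJ-1-/- replicate 2. Among the 9 genes of the Ragulator and the Rags, of which Lamtor4 was the most abundant, 3 were higher in DJ-1-/- mice and 6 lower. The membrane protein Laptm4b was the remaining gene, with a log2 fold change of 0.19 (standard error 0.08, unadjusted p of 0.0281 in edgeR's test). The value for Laptm4b was 0.0770 without DJ-1+/+ replicate 2, 0.0703 without DJ-1+/+ replicate 3, 0.0624 without DJ-1+/+ replicate 4, 0.0775 without DJ-1-/- replicate 1, 0.0631 without DJ-1-/- replicate 2, 0.0644 without DJ-1-/- replicate 4 and 0.0897 with DESeq2. The log2 fold change of Laptm4b ranged from 0.16 to 0.23 over the fits that omit a mouse, and that of Rragc from −0.33 to −0.16.

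The inhibitors and sorting factors of the enzymes were also measured. Cst3, the secreted cystatin that inhibits cysteine cathepsins such as Ctsb, had 391, 266, 364 and 345 cpm in DJ-1+/+ and 394, 346, 383, 305 and 366 cpm in DJ-1-/- mice. Its mean level was the highest of the lysosomal and related genes examined. DJ-1+/+ replicate 2 was the lowest, as it was for the sum over the members, and the log2 fold change of Cst3 was 0.07 (standard error 0.10). Sorl1, a sorting receptor, led the 11 sorting genes, of which 6 were higher and 5 lower at any p, with log2 fold changes from −0.07 to 0.09. Of the relatives of Tfeb, Tfe3 was expressed at 46 to 75 counts and had a log2 fold change of 0.10 (standard error 0.13). Among 19 other hydrolases tested, led by Acp2, 9 were higher and 10 lower, and among 20 other membrane proteins, led by Laptm4a, 11 were higher and 9 lower.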

How the data were processed

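Midbrain RNA of 9 mice was sequenced with a 3′ mRNA-seq kit (QuantSeq) from 100 ng of total RNA. The authors deposited UMI counts per gene by Ensembl identifier, without normalization, and their processing notes name GRCm38, fastp 0.20.0, STAR 2.7.3a, featureCounts 2.0.0 and UMI-tools 1.0.0. The study lists a different animal for each library. Genes absent from a library were given 0 counts, and 26576 of 26602 identifiers matched GENCODE M21, the source of symbols and positions. Library totals ran from 841974 to 1098125 counts, and the cpm given for 3 counts covers counting error only. Pairs of libraries of a genotype differed by a chi-square per degree of freedom of 1.07 to 2.27 (16 pairs), where counting error alone gives about 1, so the closest pairs cannot be told from repeats by counts, and libraries count as animals by the study's list.

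Genes with at least 10 counts were tested with edgeR 4.0.16 under R 4.3.3, by two-sided quasi-likelihood tests (glmQLFit, glmQLFTest) of a single genotype term on TMM-scaled counts. Benjamini-Hochberg adjustment covered all genes tested. The standard error is the size of the log2 fold change over the square root of F, and 95% intervals use the t quantile at the degrees of freedom of the fit. Exact permutation tests compared mean cpm. The members and lists were chosen with earlier results of these data known. Per-mouse values are given for Park7, the most abundant member of each role, members with an unadjusted p under 0.05, those with extreme fold changes or dispersion, and X-linked members. Genes named beyond these were picked after their values were seen. Of the 41 members, 20 overlap another annotated gene, 9 of them at the 3′ end, and 7 on the same strand, where strand would not separate their reads.

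Alternatives were RLE size factors, library totals, DESeq2 1.42.0, the likelihood ratio test, robust quasi-likelihood, other minimum counts, a covariate for Xist, thinning of counts to equal depth, blocks by replicate number and omission of libraries. The scripts were tested on simulated data.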

Additional observations from a re-analysis of the deposited data

Results flagged for a closer look

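Of 146 groups of values examined, 3 held a mouse far from the others of that genotype, where chance alone gives about 7.3, at 1 in 20 groups. Arsb was at 26.9 cpm in DJ-1-/- replicate 4, below the 52.8 to 60.9 cpm of the other DJ-1-/- mice. Sgsh was at 50.6 cpm in the same mouse, above the 28.0 to 32.0 cpm of the others. The glycosidase genes summed to 614 cpm in DJ-1+/+ replicate 2, above the 561 to 568 cpm of the other DJ-1+/+ mice.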

How the results depend on the processing

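No member had an adjusted p under 0.05 under any alternative run. Over all genes the count with an adjusted p under 0.05 was 1, but 2 with the likelihood ratio test, 36 without a minimum count, 3 in the 6 Xist-expressing libraries and 1 to 2 with each library left out. At an unadjusted p it was 235 with DESeq2, 802 without a minimum count and 338 to 732 with each library left out. Members at an unadjusted p under 0.05 numbered 2 (Ctsb and Lamp2), 0 with DESeq2 or the exact permutation test and 0 to 2 with each library left out, where Ctsd was 1 of the 2 without DJ-1-/- replicate 5. There was 1, Ctsb, without a minimum count, with the Xist covariate, with thinned counts and without DJ-1+/+ replicates 1 and 4. Over all genes those fits gave 802, 446, 536 and 467 genes in turn. In the Xist-expressing libraries there was 1, Ctsd, beside 279 genes higher and 219 lower over all genes. Ctsb had a larger log2 fold change there than with all libraries (0.23) and Lamp2 a smaller one (−0.066). Members without overlap numbered 1 (Smpd1) without DJ-1+/+ replicates 1 and 4, 3 in the Xist-expressing libraries and 0 to 1 with each library left out, beside 7.98%, 11.6% and 1.95% to 3.69% of all genes tested. Of the other lysosomal genes 1 to 5 had an unadjusted p under 0.05 with each library left out. The median log2 fold change over members stayed between −0.0020 and 0.05. The 32 members with an interval inside −0.5 to 0.5 became 25 without DJ-1+/+ replicates 1 and 4, 23 in the Xist-expressing libraries and 27 to 31 with each library left out. A standard error taken from the p, an alternative chosen after seeing the data, gave 32. The sources used here do not say whether same-numbered mice were paired. The correlation of their deviations was −0.18 to 0.28 over 4 pairs, against −0.35 to 0.54 over the other 16. With so few pairs and so wide a range, these values cannot decide that. The replicate number as a block gave 8 genes with an adjusted p under 0.05. At an unadjusted p it gave 571 genes and 1 member, Ctsd, and the log2 fold change of Gla was −0.011. Signs of small log2 fold changes turned, for 23 of the 41 members in at least 1 fit with a library left out, and the cause was not tested. Without DJ-1+/+ replicates 1 and 4 those of 16 members turned, to −0.12 for Gla, −0.019 for Ids, −0.069 for Ppt1, 0.039 for Psap, 0.30 for Arsb, −0.078 for Sgsh, −0.15 for Glb1, −0.14 for Naglu, −0.066 for Idua, 0.065 for Hexa, 0.051 for Neu1, −0.071 for Ctsc, 0.097 for Ctsl, 0.0058 for Lgmn, 0.022 for Tpp1 and −0.0205 for Gm2a, and Lamtor4 was at −0.042. In the Xist-expressing libraries 14 turned, to −0.19 for Gla, −0.0067 for Ids, −0.047 for Ppt1, 0.0075 for Psap, 0.25 for Arsb, −0.030 for Sgsh, −0.13 for Glb1, −0.077 for Naglu, 0.0535 for Hexa, 0.0265 for Neu1, −0.079 for Ctsc, 0.066 for Ctsl, 0.043 for Lgmn and 0.036 for Asah1, and Lamtor4 was at −0.016. With the Xist covariate 10 turned, to −0.031 for Ppt1, 0.033 for Psap, 0.13 for Arsb, −0.053 for Glb1, −0.012 for Naglu, 0.024 for Hexa, 0.028 for Neu1, −0.00079 for Ctsc, 0.066 for Ctsl and −0.020 for Gm2a. The block also turned Arsa (−0.028), Ctso (−0.073) and Lgmn (0.035). RLE size factors and DESeq2 turned Ppt1 (−0.00095 and −0.00092) and Ctso (−0.00042 and −0.00019). Without a minimum count Cln3 was at 0.0092, Ctsl at 0.0092 and Lgmn at 0.0083, and with thinned counts Ctso was at −0.078 and Atp6v1a at −0.0026. With each library left out the ranges included −0.052 to 0.15 for Gla, −0.0056 to 0.12 for Gaa, −0.013 to 0.11 for Ids, −0.041 to 0.055 for Ppt1, −0.073 to 0.064 for Psap, −0.19 to 0.087 for Arsb, −0.17 to 0.13 for Arsa, −0.063 to 0.29 for Sgsh, −0.011 to 0.45 for Naglu, −0.074 to 0.046 for Cln3, −0.0077 to 0.052 for Atp6v1a, −0.037 to 0.14 for Cst3, −0.011 to 0.076 for Laptm4a and −0.048 to 0.12 for Lamtor4. Without a change of sign they were −0.39 to −0.072 for Manba, 0.083 to 0.45 for Tfeb, −0.23 to −0.076 for Grn and 0.054 to 0.14 for Lamp1.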
